A study of Arabidopsis thaliana with 4 samples.

Results

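The genes described here are 10 Arabidopsis thaliana genes that drive, carry out or restrain cell division. They were chosen by locus: the B-type cyclins CYCB1;1 (AT4G37490), CYCB1;2 (AT5G06150), CYCB1;4 (AT2G26760) and CYCB2;1 (AT2G17620), the D-type cyclin CYCD3;1 (AT4G34160), the kinases CDKB1;1 (AT3G54180) and CDKB2;1 (AT1G76540), the syntaxin KNOLLE (AT1G08560), and the inhibitors KRP1 (AT2G23430) and SMR5 (AT1G07500). Of these 10 genes, 9 had a probe on the array, out of 25356 genes with one. No probe accession matched SMR5 in the gene table used, so it was not analysed here. KNOLLE had 3 probes and the other 8 genes had 1 each.

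Whole seedlings of the ced2 mutant were compared with their wild type on 4 one-colour Agilent arrays, 2 per genotype, each hybridised with RNA pooled from 20 plants. The ced2 seedlings are a mutant in the gl1-Col0 ecotype whose mutated gene the labels do not name. The WT seedlings share that ecotype and are given as NCED3pro:LUC transgenic, a luciferase reporter under the promoter of an abscisic acid synthesis gene. Seedlings of both genotypes were 14 d old and had spent 6 h in 40% PEG, which withdraws water from plant tissue. No untreated seedlings were analysed here, so every comparison is between genotypes under osmotic stress.

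Progress through the plant cell cycle depends on cyclin-dependent kinases (CDKs), which act only when bound to a cyclin. D-type cyclins act at the entry into DNA replication, where their kinases phosphorylate the retinoblastoma protein RBR1 and release E2F transcription factors. B-type cyclins and the plant-specific B-type CDKs act at the passage into and through mitosis. KNOLLE is made in dividing cells and fuses vesicles into the cell plate that separates the daughters. KRP and SIM/SMR proteins bind CDK complexes and restrain them. In a seedling most mitotic transcripts come from the meristems and young leaves, and water deficit is known to restrict division there.

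The sign of every difference rests on the labels of the scanner files. The authors' deposited value table holds the same 4 measurements with the genotypes exchanged. Every column in it correlated with a scan labelled as the opposite genotype (r = 0.999999 across probes), and its correlation with the scan of its own sample lay between -0.573 and -0.369. Values below follow the scans, called the ced2 files and the WT files, and under the value table's labels each sign would be turned. The signal at the 75th percentile was 3710 and 4444 in the ced2 files and 3322 and 2790 in the WT files. Replicates differed by a median of 0.034 (ced2) and 0.0456 (WT) on the log2 scale, over probes above background on all arrays. Repeat spots on one array, of only 19 to 23 probes, differed by a median of 0.0476 to 0.0996. The p-values measure the small spread between replicates, which may be technical. All 4 arrays shared 1 slide. The ced2 arrays took positions 4 and 3 and the WT arrays 1 and 2, which means that an effect of position and one of genotype cannot be told apart.

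Against that small spread, most genes on the array passed the test. Signals are given as log2 of the processed signal minus the 75th percentile of the array, and differences as ced2 minus WT files. The test was limma's, two-sided, with p-values adjusted by Benjamini-Hochberg across the 20835 genes tested and a threshold of 0.05. By that rule 77.9% of all genes tested passed, 42.4% as higher and 35.6% as lower in the ced2 files. With a 2-fold minimum as well, 8.01% were higher and 3.32% lower. The median log2 difference over all genes was 0.05, with an interquartile range of -0.29 to 0.44.

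All 8 measured genes that promote division rose in the ced2 files and the inhibitor KRP1 fell. The 8 were higher by 0.74 to 1.73 on the log2 scale, or 1.68-fold to 3.32-fold. Their adjusted p and that of KRP1 lay between 0.00016 and 0.00253. The count of 8 higher out of 9 stands beside the 42.4% of all genes that were higher, and 3 of the 9 were higher by at least 2-fold beside 8.01% of all genes. The median difference of the 9 was 0.94, against 0.05 for all genes tested. None of the 9 had overlapping groups, but neither did 90.2% of all genes tested. Seedling RNA is a mixture, so fewer cells of a type and less RNA per cell cannot be told apart.

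**Figure D1:**
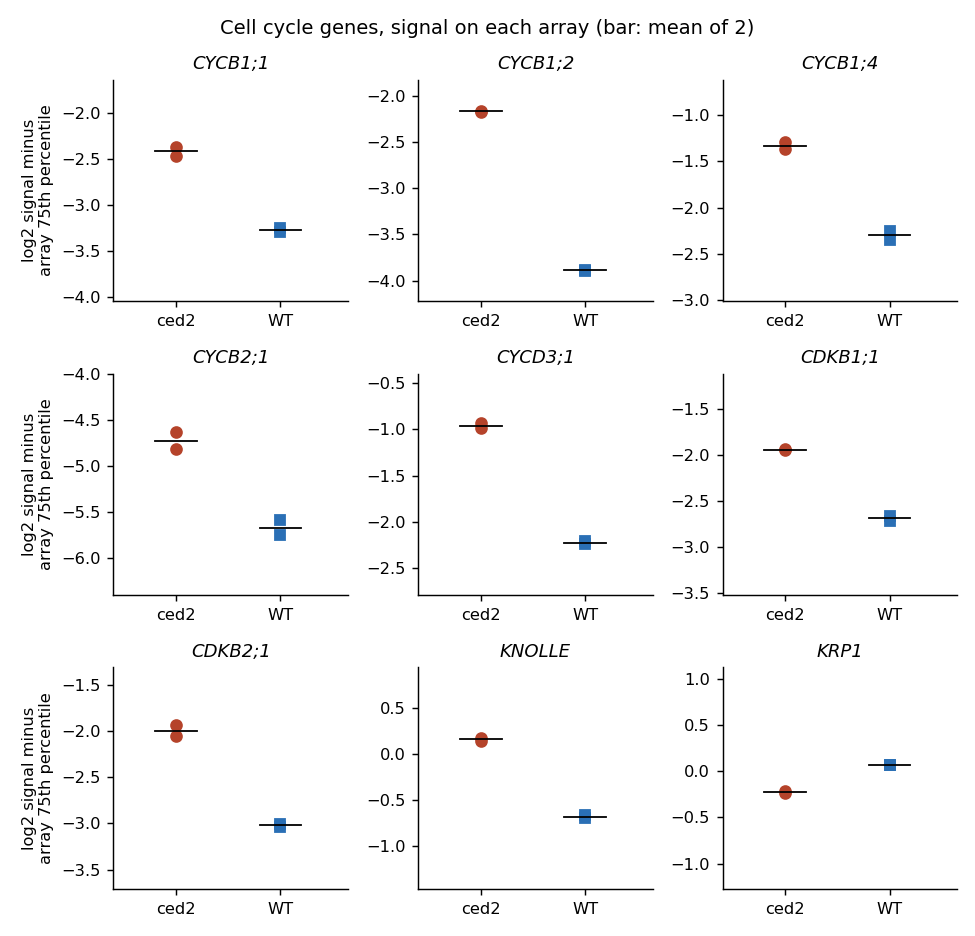
Normalized log2 signal of the 9 measured genes on each array, with circles for the ced2 files, squares for the WT files and a bar for the mean of 2. Every panel spans the same number of log2 units on its own range. Both ced2 arrays lie above both WT arrays for each gene except KRP1, where they lie below.

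CYCB1;2, a mitotic cyclin, differed the most. Its log2 signal was -2.16 and -2.17 in the ced2 files, against -3.89 and -3.90 in the WT files. In linear units the processed signal was 833 and 993 on the ced2 arrays, against 225 and 189 on the WT arrays. Replicates of each genotype lay within 0.01 of each other on the log2 scale, and the groups were far apart. The gene rose 3.32-fold (log2 difference 1.73, SE 0.0213, limma adjusted p = 0.00016, n = 2 per group as for every gene here). Its difference was above that of 97.7% of all genes tested.

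The other B-type cyclins rose by 0.85 to 0.97 on the log2 scale, and differences between them were not tested. CYCB1;1, a mitotic cyclin widely used as a reporter of cells in G2 and mitosis, had log2 signals of -2.47 and -2.37 in the ced2 files, against -3.29 and -3.25 in the WT files. The means were -2.42 ± 0.0698 in the ced2 files and -3.27 ± 0.0237 in the WT files (SD, n = 2), and the groups did not overlap. It rose 1.80-fold (log2 difference 0.85, SE 0.0447, limma adjusted p = 0.000535). CYCB1;4, a further mitotic cyclin of the same class, had -1.37 and -1.29 in the ced2 files, against -2.35 and -2.25 in the WT files. Both ced2 arrays were again above both WT arrays, and the gene rose 1.95-fold (log2 difference 0.97, SE 0.0543, limma adjusted p = 0.000605).

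CYCB2;1, also a mitotic cyclin, had a low signal on every array. Its processed signal was 150 and 158 on the ced2 arrays, against 69.4 and 52.1 on the WT arrays, and was flagged by the scanner software as well above background on all 4. On the log2 scale that was -4.63 and -4.82 in the ced2 files, against -5.59 and -5.75 in the WT files. Its replicates were the furthest apart of any of the 9, by 0.19 in the ced2 files and 0.16 in the WT files, and the groups did not overlap. It rose 1.92-fold (log2 difference 0.94, SE 0.0970, limma adjusted p = 0.00253). With normexp background correction, where an offset of 50 is added before the arrays are scaled, its sign turned to -0.31 and its call was lost (limma adjusted p = 0.0776). With normexp followed by quantile normalization it was 0.40 (limma adjusted p = 0.00169). CYCB1;1 and CYCB1;4 were at 0.38 and 0.77 with normexp before scaling.

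CYCD3;1, the D-type cyclin that responds to cytokinin and sugar and acts at the start of the cycle, had the next highest difference of the 9. Its log2 signal was -0.98 and -0.93 in the ced2 files, against -2.24 and -2.21 in the WT files. In linear units this was 1880 and 2340 on the ced2 arrays, against 706 and 605 on the WT arrays. The groups stood 1.23 log2 units apart at their nearest arrays, while replicates differed by 0.05 at most. It rose 2.41-fold (log2 difference 1.27, SE 0.0303, limma adjusted p = 0.00019), a difference above that of 94.9% of all genes tested.

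Both B-type kinases were higher in the ced2 files. CDKB1;1, which is made from S phase into mitosis and also acts in the stomatal lineage, had log2 signals of -1.95 and -1.94 in the ced2 files, against -2.66 and -2.72 in the WT files. CDKB2;1, whose expression is held more tightly to G2 and mitosis, had -2.05 and -1.94 in the ced2 files, against -3.04 and -3.01 in the WT files. Neither gene's groups overlapped. The first rose 1.68-fold (log2 difference 0.74, SE 0.0332, limma adjusted p = 0.000398), the least of the 8, and the other rose 2.03-fold (log2 difference 1.02, SE 0.0492, limma adjusted p = 0.000451).

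KNOLLE was higher by every probe. The probe with the highest mean signal, which stands for the gene, read 0.17 and 0.14 in the ced2 files, against -0.66 and -0.69 in the WT files. It rose 1.78-fold (log2 difference 0.83, SE 0.0268, limma adjusted p = 0.000248). A dimmer probe read -2.39 and -2.38 in the ced2 files, against -3.34 and -3.43 in the WT files, and another read -0.21 and -0.23 in the ced2 files, against -0.96 and -0.98 in the WT files. In a fit over all named probes these rose 2.01-fold and 1.68-fold (limma adjusted p = 0.000369 and 0.00026), so all 3 moved the same way. They target one gene and are not replicates.

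KRP1, a CDK inhibitor known as a gene that abscisic acid induces, was the one measured gene of the set that fell. Its log2 signal was -0.24 and -0.21 in the ced2 files, against 0.07 and 0.07 in the WT files. The groups did not overlap, but the gap between them was small, at 0.28. KRP1 fell by 0.30 on the log2 scale, a level 1.23-fold lower (SE 0.0225, limma adjusted p = 0.00118). Of all genes tested, 24.8% had a lower difference and 35.6% were called lower, so a fall of this size was common on these arrays.

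**Figure D2:**
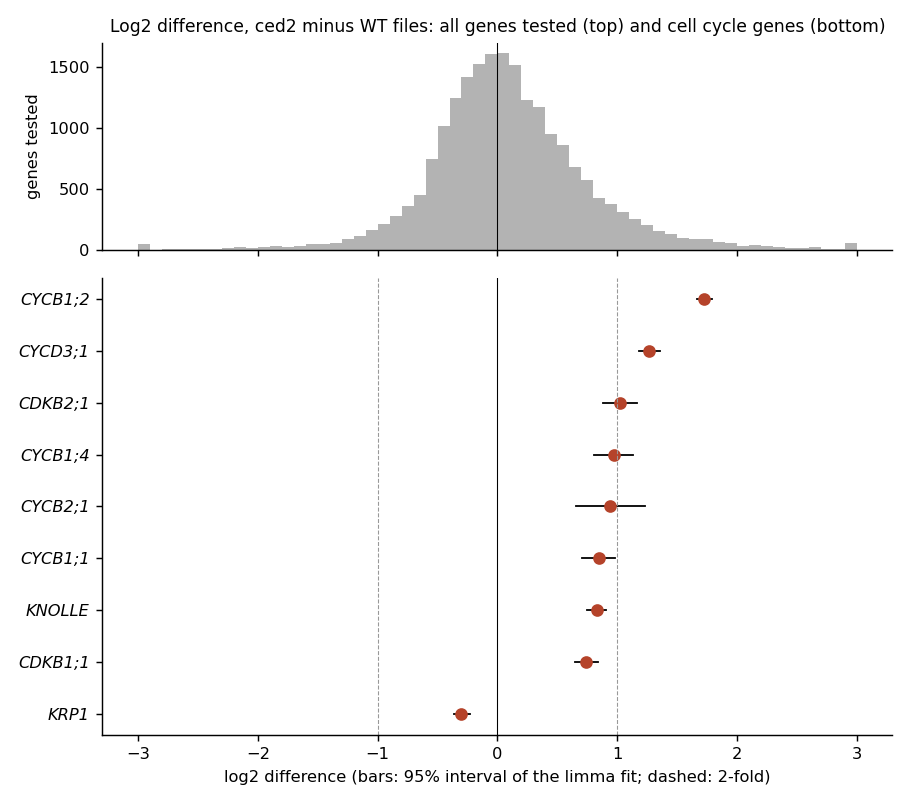
Log2 difference, ced2 minus WT files, of all genes tested (top, histogram with values beyond 3 or -3 in the end bins) and of the 9 measured cell cycle genes (bottom, points with the 95% interval of the limma fit). The highest points lie at 1.73 and 1.27, 6 genes lie between 0.74 and 1.02, and KRP1 lies at -0.30.

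Among the genes that rose, the sizes of the differences formed a short order. The 95% interval of CYCB1;2, 1.67 to 1.79, lay clear of all others. That of CYCD3;1, 1.18 to 1.36, lay just above that of CDKB2;1, 0.88 to 1.17, but overlapped the wider interval of CYCB2;1, 0.66 to 1.23. Below it, neighbours in the order had overlapping intervals, down to KNOLLE at 0.75 to 0.91 and CDKB1;1 at 0.65 to 0.84. Differences between genes were not tested, and each gene was read by its own probe. The intervals measure the same small replicate spread as the p-values. With normexp before scaling CYCB1;2 was at 1.04 and CYCD3;1 at 1.05, so the order was not kept there.

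The difference also moved with signal strength over the whole array. With genes split into 4 equal classes by mean signal, the median log2 difference of all genes was 0.31 in the dimmest class, then 0.14, -0.03 and -0.09 in the brightest. CYCB2;1 lay in the dimmest class, KNOLLE and KRP1 in the third, and the other 6 in the second. Each of the 8 higher genes exceeded the upper quartile of all genes in its own class, which was 0.84, 0.53 and 0.28 for these 3 classes from dim to bright. The part of signal strength in the size of the differences was not tested.

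**Figure D3:**
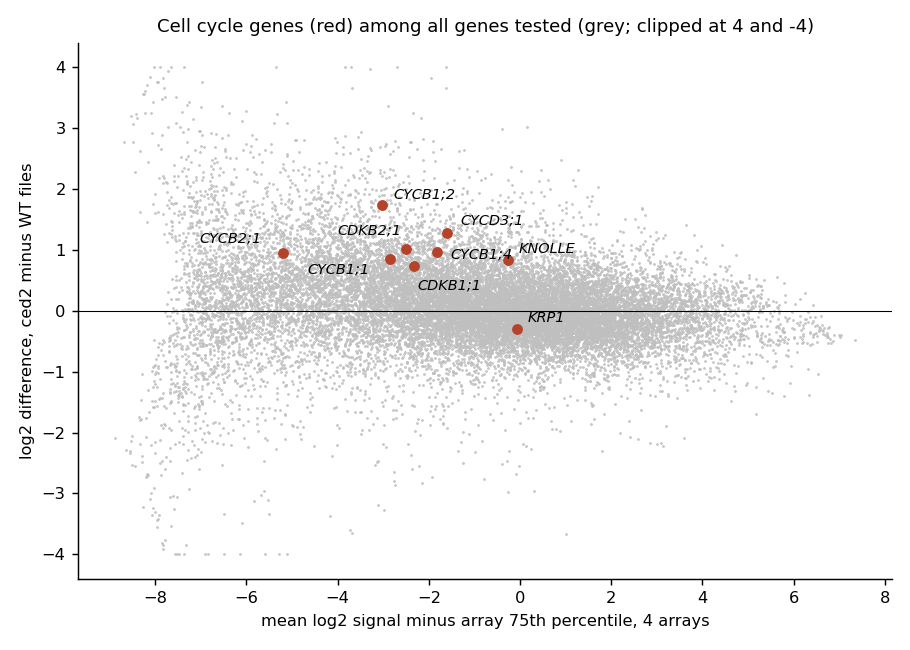
Mean normalized log2 signal over the 4 arrays (x axis) and log2 difference, ced2 minus WT files (y axis), for all genes tested (grey, clipped at 4 and -4) and the 9 cell cycle genes (red). The 8 higher genes lie between 0.74 and 1.73 over a wide range of signal, and KRP1 lies at -0.30.

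Of 94 further cell cycle genes in 11 lists, 92 were tested. Of these, 64 rose (69.6%, beside 42.4% of all genes), 17 fell (18.5%, beside 35.6%) and 11 did not pass. The median difference was 0.47, or 0.05 with normexp before scaling and 0.25 with normexp followed by quantile normalization, and 11 rose by at least 2-fold while none fell as far. With quantile normalization 56 of the 64 were still called higher, and likewise 56 with normexp followed by quantile normalization. In both, 0 of the 64 were called lower. With normexp before scaling 41 were still called higher and 6 were called lower, all genes then having a median of -0.14. Over all 20835 genes tested, 5696 were then called higher and 9937 lower. The counts per list below stand beside these and the shares of all genes given above. Values in the following paragraphs are log2 differences, ced2 minus WT files. A value in parentheses after a gene's difference is its difference with normexp before scaling, given where it changed the call, the sign or much of the size.

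**Figure D4:**
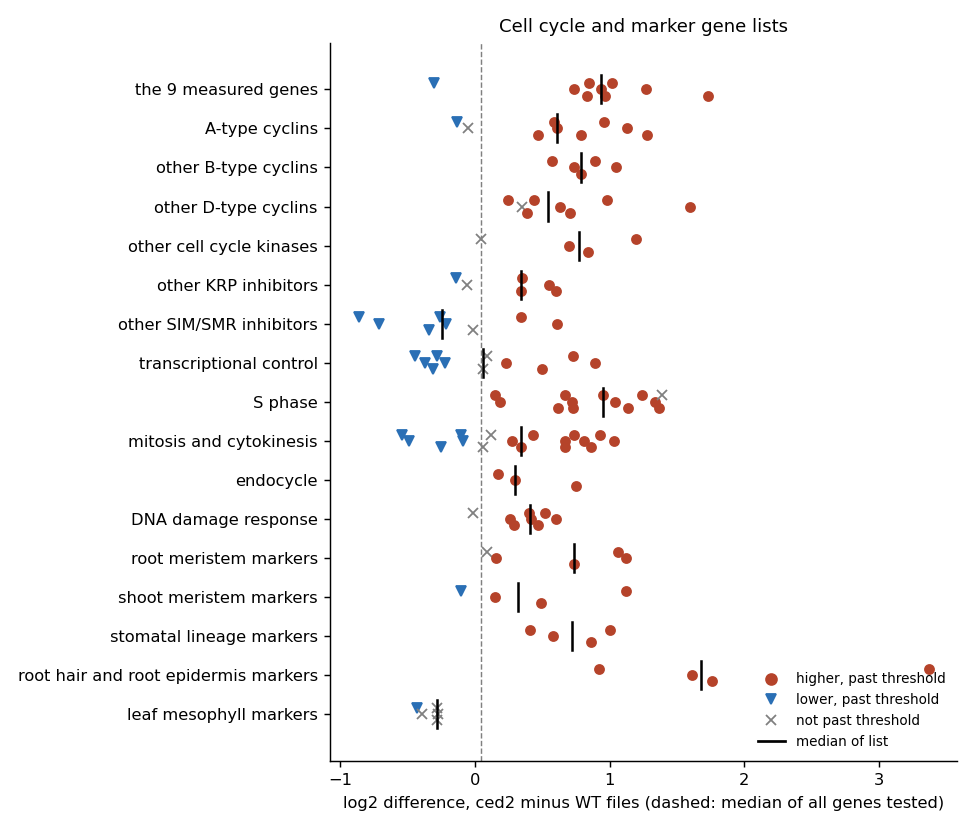
Log2 difference, ced2 minus WT files, of each tested gene in the cell cycle and marker lists. Circles are genes higher and past the threshold, triangles genes lower and past it, crosses genes not past it, black bars list medians and the dashed line the median of all genes tested (0.05). S phase genes have a median of 0.95, close to the 0.94 of the 9 genes described, and SIM/SMR inhibitors a median of -0.24.

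Cyclins outside the chosen set mostly rose, and many of these rises were lost with normexp before scaling. Of all genes tested, 42.4% were higher and 35.6% lower. With normexp followed by quantile normalization 5 other B-type, 6 A-type and 6 other D-type cyclins were called higher. Lower calls there numbered 0, 1 and 0. All 5 other B-type cyclins rose (median 0.79), while with normexp before scaling 2 rose and the median was 0.10. CYCB1;3 rose by 1.05 (0.67) and CYCB2;2 by 0.89 (0.22). CYCB2;4, CYCB3;1 and CYCB2;3 rose by 0.79, 0.74 and 0.57, but all 3 lost their call with normexp before scaling (0.10, -0.17 and -0.22). Of 9 A-type cyclins, which act in S phase and G2, 7 rose, 1 fell and 1 did not pass (median 0.61), while with normexp before scaling 4 rose and 3 fell (median 0). CYCA1;1 rose by 1.28 (0.60) and CYCA2;3 by 1.13. CYCA2;4 rose by 0.96 but was at 0 and not called with normexp before scaling. Of 8 tested D-type cyclins beside the chosen one, 7 rose and 1 did not pass (median 0.54), while with normexp before scaling 4 rose and 3 fell (median 0.14). CYCD6;1, a cyclin of formative divisions in the root, rose by 1.60 but was called lower there, at -0.41. With normexp followed by quantile normalization CYCD6;1 was called higher, at 0.53. CYCD1;1 rose by 0.98 but lost its call with normexp before scaling (0.11). CYCD3;3, of the same subfamily as the chosen D-type cyclin, rose by 0.71.

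Among the kinases, CDKB1;2 and CDKB2;2, the close paralogues of the B-type kinases above, rose by 0.84 (0.50) and 0.70 (0.32). CDKA;1, the main plant CDK, which is present throughout the cycle, differed by 0.05 and did not pass (limma adjusted p = 0.0945), was called higher at 0.09 with quantile normalization and was at -0.02 with median scaling. WEE1, a kinase that restrains CDKs when DNA replication is disturbed, rose 2.29-fold. With normexp before scaling it lost its call at a log2 difference of -0.19, and with normexp followed by quantile normalization it was called higher, at 0.49. Over these 4 genes 3 rose and the median was 0.77, while with normexp before scaling 2 rose and the median was 0.17. Probes may not separate paralogues that are alike in sequence.

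The inhibitors other than KRP1 did not share one direction. Of 6 other KRP genes, 4 rose, 1 fell and 1 did not pass (median 0.34), while with normexp before scaling 3 rose and 1 fell (median 0.06). KRP3 rose by 0.60 but lost its call there (-0.15), KRP6 rose by 0.55 and KRP7 by 0.35. Of 8 other genes in the SIM/SMR list, 5 fell, 2 rose and 1 did not pass (median -0.24). That was 62.5% lower and 25% higher, beside 35.6% and 42.4% of all genes. With normexp before scaling 6 fell and 1 rose (median -0.27), beside 9937 and 5696 of all 20835 genes. The loci AT5G02420 and AT1G10690, to which the gene table gives no symbol, fell by 0.86 and 0.71. SMR4 rose by 0.61 but lost its call with normexp before scaling (-0.17). SMR7, an inhibitor known to be induced with SMR5 by DNA damage and oxidative stress, is named after its value was seen. It differed by -0.01 and did not pass (limma adjusted p = 0.866), but was called lower at -0.21 with quantile normalization, -0.25 with normexp before scaling and -0.17 with normexp followed by quantile normalization.

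Of 13 genes of DNA replication, 12 rose (92.3%, beside 42.4% of all genes) and 1 did not pass (median 0.95). With normexp before scaling 11 rose and 1 fell (median 0.49). The sliding clamp PCNA1 rose by 1.37, the licensing factor CDT1A by 1.34 (0.49), and MCM6 and MCM2 of the replicative helicase by 1.24 (0.41) and 0.95. ORC1A, of the origin recognition complex, is named after its value was seen. It differed by 1.39, was above background on 3 of 4 arrays and did not pass (limma adjusted p = 0.0564). It was called lower, at -1.05, with normexp before scaling, and called higher in both alternatives added after seeing the data, at 0.24 with normexp followed by quantile normalization and 0.44 with 50 added after scaling, so its direction is not settled.

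Genes of mitosis and cytokinesis divided, with 10 of 17 higher, 5 lower and 2 not past (median 0.34). That was 58.8% higher and 29.4% lower, beside 42.4% and 35.6% of all genes. With normexp before scaling 7 were higher and 6 lower (median 0.04), beside 5696 and 9937 of all 20835 genes. With normexp followed by quantile normalization the median was 0.08. TPX2, which nucleates spindle microtubules, rose by 1.03 (0.24). HIK, a kinesin needed for cell plate growth, rose by 0.93, and NPSN11, a SNARE that pairs with KNOLLE at the cell plate, rose by 0.86. KEU and SNAP33, which also work with KNOLLE and are named after their values were seen, fell by 0.49 and 0.09. The 2 probes of KEU differed in size, at -0.49 and -0.11. For SNAP33 the probes disagreed in sign, between -0.16 and 0.06, and the call was lost with quantile normalization, at 0, and with normexp before scaling, at -0.04.

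Of 11 transcriptional regulators of division, 4 rose, 5 fell and 2 did not pass, or 36.4% higher and 45.5% lower beside 42.4% and 35.6% of all genes. Their median was 0.06, against -0.03 with quantile normalization and -0.05 with normexp before scaling, where 2 rose and 5 fell. DEL1, an E2F-like repressor of endoreduplication, and E2FA rose by 0.89 and 0.50 but lost their call with normexp before scaling (0.05 and 0.06), and MYB3R5 rose by 0.73. MYB3R4, an activator of mitotic genes, fell by 0.31, and MYB3R1, named after its value was seen, fell by 0.44. All 3 CCS52 activators of the anaphase-promoting complex, the endocycle list, rose, CCS52A1 by 0.75 (0.41), CCS52A2 by 0.30 and CCS52B by 0.17. With quantile normalization CCS52A2 and CCS52B lost their call, at 0.09 and 0.02, as they did with normexp before scaling, at -0.14 and -0.09.

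Of 8 tested DNA damage genes, 7 rose (87.5%, beside 42.4% of all genes) and 1 did not pass (median 0.41). With normexp before scaling 4 rose and 1 fell (median 0.19). ATR, a kinase that senses stalled replication, rose by 0.60 but lost its call there (-0.27), BRCA1 rose by 0.52 (0.34) and XRI1 by 0.47 (0.29). SOG1, the transcription factor that heads this response, is named after its value was seen: it differed by -0.01 and did not pass (limma adjusted p = 0.781).

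For each of the 9 genes the most alike of the 92 list genes was found, as the smallest root mean square distance between centred log2 signals over the 4 arrays. KNOLLE was nearest to the paralogous kinase CDKB1;2 (0.00629) and KRP1 to MYB3R4 (0.00954), which fell. CDKB1;1 was nearest to CYCB3;1 (0.00847), and its fellow kinase of the set to CYCA2;4 (0.0355). Of the B-type cyclins, those at loci AT4G37490, AT2G26760 and AT2G17620 were nearest to CYCB2;2 (0.0358), MCM2 (0.0443) and HIK (0.0572). The chosen D-type cyclin was nearest to CYCA1;1 (0.0426). The cyclin with the highest difference had no list gene as close, the nearest being CYCD6;1 at 0.121. With 4 arrays in 2 groups, likeness here is close to having the same difference.

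Markers of tissues that hold dividing cells, and of root hairs, root epidermis and leaf mesophyll, follow. Of all genes tested, 77.9% passed in either direction, 42.4% as higher. With normexp before scaling 5696 of the 20835 genes were called higher and 9937 lower, so calls as lower were common there. Of 5 root meristem markers, 4 rose and 1 did not pass (median 0.74), while with normexp before scaling 1 rose and 3 fell (median -0.21). PLT1, PLT2, SHR and WOX5 rose by 1.12, 1.06, 0.74 and 0.16, and SCR differed by 0.09 (limma adjusted p = 0.0916). With normexp before scaling PLT1, PLT2 and WOX5 were called lower, at -0.76, -0.58 and -0.21, and SHR was at 0.46. With quantile normalization WOX5 lost its call at -0.06. With normexp followed by quantile normalization 3 of the list were called higher and 0 lower (median 0.31). PLT1, PLT2 and SHR were then at 0.31, 0.33 and 0.50. The summed linear signal of this list, in units of the array's 75th percentile, was 0.827 to 0.830 in the ced2 files and 0.660 to 0.673 in the WT files. SCR and SHR, its brightest genes, weigh most in this sum.

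Of 4 tested shoot meristem markers, 3 rose and 1 fell (median 0.32), while with normexp before scaling 1 rose and 1 fell (median -0.08). CLV1 rose by 0.49. KNAT1 rose by 1.12 but lost its call with normexp before scaling (0.05). KNAT2 rose by 0.15 but lost its call both there (-0.21) and with quantile normalization (-0.06). With normexp followed by quantile normalization KNAT1 was called higher, at 0.50, and KNAT2 was not called, at -0.07. STM fell by 0.10 by one probe, or by 0.30 with quantile normalization, and stood at 0.30 by another probe. WUS and CLV3, which define the shoot stem cell niche, were not well above background on any array. The shoot meristem list summed to 1.51 to 1.53 in the ced2 files and 1.11 to 1.15 in the WT files. Most of this sum is CLV1, with log2 signals of 0.28 and 0.27 in the ced2 files and -0.19 and -0.25 in the WT files.

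All 4 stomatal lineage markers rose (median 0.72), while with normexp before scaling 1 rose and 2 fell (median -0.33). MUTE rose by 1.00, BASL by 0.86, SPCH by 0.58 and TMM by 0.41. With normexp before scaling MUTE and SPCH were called lower, at -0.68 and -0.77, and BASL lost its call at 0.02. With normexp followed by quantile normalization 3 were called higher and 0 lower (median 0.33), and SPCH lost its call, at 0.15. MUTE was then at 0.29 and BASL at 0.38. This list summed to 1.47 to 1.50 in the ced2 files and to 1.09 in the WT files. Most of this sum is TMM, its brightest gene, with log2 signals of 0.46 and 0.43 in the ced2 files and 0.03 on both WT arrays.

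All 4 root hair and root epidermis markers rose (median 1.68), as they did with normexp before scaling (median 0.87). IRT1 rose by 3.37 (2.10), COBL9 by 1.76 (1.1), EXPA18 by 1.61 (0.63) and EXPA7 by 0.92 (0.28). They summed to 0.886 to 0.896 in the ced2 files and 0.206 to 0.208 in the WT files. IRT1 was the brightest of the 4 in the ced2 files, at -1.23 and -1.19, against -4.59 and -4.57 in the WT files. It therefore weighs most in the ced2 sum. Whether IRT1 follows the amount of root epidermis was not tested.

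Of 5 leaf mesophyll markers, 1 was called lower and 4 did not pass (median -0.28), while with quantile normalization 2 were called higher and none lower (median 0.06). LHCB1.3 fell by 0.43, but its 9 probes lay between -0.49 and 0.14. It lost its call with normexp before scaling (-0.32) and with quantile normalization (-0.03). Its log2 signal was 7.34 and 7.14 on the WT arrays with 75th percentiles of 2790 and 3322. On the ced2 arrays with 3710 and 4444 it was 6.94 and 6.69, so it fell as that percentile rose. Saturation of the mesophyll spots, and the part of array scaling in their differences, was not tested. LHCB1.1, LHCB1.2, PSBO1 and RBCS1A were at -0.28, -0.28, -0.39 and -0.27. With quantile normalization LHCB1.1 and RBCS1A were called higher, at 0.12 and 0.13, and probes of both genes disagreed in sign. The list summed to 473 to 554 in the ced2 files and 599 to 697 in the WT files. The part of tissue makeup in the differences of the cell cycle genes was not tested.

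The direction of the 9 genes was then followed through other processing. Under quantile normalization the 8 still rose and KRP1 still fell, with a median of 0.82 for the 9, and the same counts held with normexp followed by quantile normalization (median 0.69). The largest difference of the 9, 1.73, was 1.04 with normexp before scaling, that of CYCB1;1 was 0.38, and those of the B1-type and B2-type kinases were 0.47 and 0.65, all still called. KNOLLE stayed between 0.76 and 0.86 under every setting that kept the scans' labels, and KRP1 between -0.37 and -0.27.

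**Figure D5:**
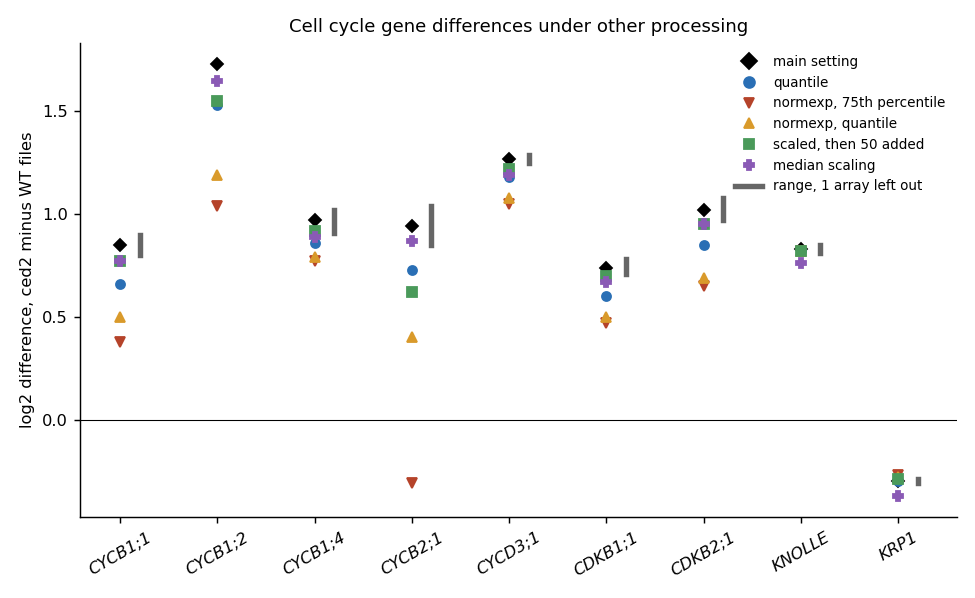
Log2 difference, ced2 minus WT files, of the 9 cell cycle genes under 6 ways of scaling and background correction (symbols) and with 1 array left out (grey bar, range of 4 fits). CYCB2;1 is the only gene whose sign turns, to -0.31 with normexp before scaling.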

How the data were processed

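RNA of whole seedlings (0.3 µg labelled with Cy3, per the labels) was measured on 4 arrays. Scans were quantified by Feature Extraction 10.7.1.1 (Agilent), according to the submitters' processing notes. The deposited scanner files hold, per the file headers, a background-subtracted and detrended intensity per spot that is not normalized between arrays, the median intensity of spot and local background, and flags. The authors' deposited value table holds log2 values whose scaling and centring are not stated. It matched log2 processed signal minus the 75th percentile, centred on each probe's median, within 0.01 for 100% of values. Its column medians were 0.01 and -0.03 under the ced2 labels and 0.08 and -0.03 under the WT labels, and which genotype each column holds is unsettled.

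Control and outlier spots were left out, spots of a probe were averaged, and 70 of 43603 probes without a usable spot on an array were dropped. Accessions without versions were matched to RefSeq's TAIR10.1 gene table, used for names only: 34236 probes had a gene and 9297 had none. A gene is its probe with the highest mean signal, tested where that probe is well above background on both arrays of a group. Groups were compared with limma 3.58.1 in R 4.3.3, with 2 residual and 1.49 prior degrees of freedom, a fit checked on simulated data. The simulation drew independent noise at the replicate spread of these arrays. It therefore cannot show whether that spread is technical or whether array position matters. The number of arrays limits the precision. Replicate numbers showed no sign of pairing the arrays: deviations of same-numbered arrays from their group means correlated at -0.0139. Replicates differed by no more than repeat spots did, so a weak pairing could go unseen. Alternatives were other scalings, background corrections (normexp on the median intensities), filters and probe rules, a replicate block, an intensity trend, stricter thresholds, the value table and leaving out each array. The members and lists were chosen with earlier results of these data known. Named genes are the members, up to 3 called genes per list with the largest difference, every gene of lists of 5 or fewer and of marker lists, and the nearest gene to each member.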

Additional observations from a re-analysis of the deposited data

How the results depend on the processing

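Of the 9 measured genes, 8 higher and 1 lower were also counted with quantile normalization, median scaling, no filter on dim probes, a filter asking for all 4 arrays, the mean over probes, an intensity trend, an adjusted p of 0.01 and the replicate block (8 and 1, with 15687 genes called over the array). Without each array in turn the counts were again 8 and 1, and all genes called ranged from 14142 to 15297. The lone array of a genotype is then assumed to vary like the others. With normexp before scaling 7 were higher and 1 lower, and CYCB2;1 turned to -0.31. In 2 alternatives chosen after seeing the data, normexp followed by quantile normalization and adding 50 after scaling, it was 0.40 and 0.62 and the counts were 8 and 1. Normexp before scaling gave 5696 genes higher and 9937 lower, against 8831 and 7408, or 36.4% against 54.4% of calls as higher, and median scaling 47.4%. At a 2-fold minimum 3 of the 9 were higher, 0 lower, and 2360 genes were called (1668 higher and 692 lower, 503 and 2019 with normexp before scaling, 612 and 394 with normexp then quantile, 1018 and 450 with 50 added after scaling). In the authors' deposited table, by its own labels, 1 was higher and 8 lower. There the B-type cyclins, in the order first listed, were at -0.85, -1.73, -0.96 and -0.94, the D-type cyclin at -1.27, the kinases at -0.74 and -1.02, KNOLLE at -0.83 and KRP1 at 0.30. The cause of these shifts was not tested beyond the exchanged labels.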
